A study of Mus musculus with 4 samples.

Results

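Transcription factors outside the Hox clusters that are known for setting regional identity along the gut were followed in mouse colon, as 7 genes (Cdx1, Cdx2, Gata4, Gata6, Osr2, Barx1 and Nkx2-3) of the 44788 gene rows in the count table. The members were chosen by name for their known roles and by their measured levels in these same libraries, with no threshold, so the levels below are a description and carry no test. Of the 7 members, 5 had at least 50 counts in some library, Gata4 had at most 14 counts, and Barx1 had 0 counts in every library.

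The libraries, 4 in number, came from colon tissue of C57BL/6 mice, with a single library for every genotype and treatment. The genotypes were wild type (WT) and Card9-/-, which lacks an adaptor protein of myeloid cells by its label, and the mice were untreated (day 0) or had received AOM/DSS (day 100). AOM/DSS combines azoxymethane, a mutagen given here once at 10 mg/kg, with 3 cycles of 7 days of 2% dextran sulfate sodium in the drinking water, an irritant, and is a model of colitis-associated colon cancer. Treatment and day of collection coincide and cannot be told apart, and whether a library holds 1 mouse or a pool is not given in the sources used here.

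Cdx1 and Cdx2 are caudal-type homeobox factors of the intestinal epithelium, where Cdx2 holds intestinal against gastric identity. Gata4 and Gata6 are zinc finger factors of the gut epithelium, of which Gata4 marks the proximal small intestine and Gata6 extends into the colon. Barx1, a homeobox factor of stomach mesenchyme, is known for permitting gastric differentiation of the overlying epithelium, Nkx2-3 is a homeobox factor of gut mesenchyme and of the endothelium that carries the addressin Madcam1, and Osr2 is an odd-skipped zinc finger factor of embryonic mesenchyme.

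The RefSeq table of promoter windows (GRCm38.p6) matched 3 of the 7 members, Cdx2, Nkx2-3 and Barx1. The 250 bases before the start site are shown for the first pair, since both are homeobox genes and Cdx2 is the epithelial member with the widest spread of levels while Nkx2-3 varied less. Capitals mark the letters GTAAACA, the core that forkhead factors bind, and CCAAT, searched on both strands. Both searches, and those for GATAA and TTTAT, were set after the windows had been read.

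Cdx2: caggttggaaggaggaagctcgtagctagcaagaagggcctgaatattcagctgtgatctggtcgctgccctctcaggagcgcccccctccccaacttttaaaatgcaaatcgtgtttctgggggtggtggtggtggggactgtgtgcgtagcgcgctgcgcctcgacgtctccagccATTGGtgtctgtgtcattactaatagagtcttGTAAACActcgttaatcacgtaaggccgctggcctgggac

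Nkx2-3: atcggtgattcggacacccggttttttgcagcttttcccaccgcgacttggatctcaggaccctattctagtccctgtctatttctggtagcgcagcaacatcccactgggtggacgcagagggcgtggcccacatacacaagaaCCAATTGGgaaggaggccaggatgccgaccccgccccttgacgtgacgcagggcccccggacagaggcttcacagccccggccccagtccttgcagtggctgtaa

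The Cdx2 window lies on chromosome 5 from 147307250 to 147307499 (minus strand) and held 1 forkhead core, beginning 40 bases before the start site, and 1 CCAAT box, beginning 72 bases before it. These distances are from the RefSeq start, and the GENCODE start of Cdx2, 147307270, lies inside the window. The Nkx2-3 window lies on chromosome 19 from 43612075 to 43612324 (plus strand) and held 2 overlapping CCAAT boxes on opposite strands. GTAAACA occurred in 3.2% of all 32851 windows in the table and CCAAT in 33.8%. Neither window held GATAA, found in 22.6% of windows, or TTTAT, the letters of a Cdx core, found in 37.3%. These matches describe letters only, since no binding was measured.

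Card9 itself had 44 counts in untreated WT, 69 in the untreated library labelled knockout, 116 in WT AOM/DSS and 245 in the AOM/DSS library labelled knockout. Card9 was thus not lower under the knockout label. Gene counts do not show which exons the reads came from, so the label could not be checked. Any direction by genotype is therefore a direction by label. One library, labelled knockout after AOM/DSS, stood apart: over 16383 genes it correlated with the other 3 libraries at 0.827 to 0.855, while those correlated with each other at 0.942 to 0.954. Library totals ran from 23022885 to 27706567 counts. Each epithelial marker listed (10 of 10) was counted in each library.

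Levels are given in CPM (the usual counts-per-million unit, a gene's share of its library), scaled by TMM, which corrects for the makeup of a library. Each interval is a 95% counting interval that covers counting error only, and no pair of libraries has a replicate check. In bulk tissue, fewer cells of a type and less RNA per cell cannot be told apart.

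Among the epithelial members, Cdx1 and Cdx2 were abundant in 3 libraries and low in the AOM/DSS library labelled knockout, while Gata6 was nearly level. Cdx1 (chromosome 18, 61018862 to 61036199) had 4873 counts in untreated WT, 5696 in the untreated library labelled knockout, 5180 in WT AOM/DSS and 2295 in the AOM/DSS library labelled knockout. In the same order this was 193 CPM (188 to 199), 262 CPM (255 to 269), 238 CPM (231 to 244) and 72.4 CPM (69.5 to 75.5). No interval overlapped another, and the first 3 levels lay within a 1.36-fold range.

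Cdx2 (chromosome 5, 147300805 to 147307270) had 6493 counts in WT before and 6090 after AOM/DSS, or 258 CPM (251 to 264) and 279 CPM (272 to 286). The libraries labelled knockout had 3112 counts untreated and 534 after AOM/DSS, or 143 CPM (138 to 148) and 16.9 CPM (15.5 to 18.4). Its highest level exceeded its lowest 16.6-fold (15.2 to 18.1), against 3.62-fold (3.45 to 3.80) for Cdx1. Cdx2 was thus lower in both libraries labelled knockout than in both WT libraries, an order that Cdx1 did not share.

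Gata6 (chromosome 18, 11052064 to 11085635) had 941 counts in untreated WT, 933 in the untreated library labelled knockout, 832 in WT AOM/DSS and 1021 in the AOM/DSS library labelled knockout. These were 37.3 CPM (35.0 to 39.8), 43.0 CPM (40.2 to 45.8), 38.2 CPM (35.6 to 40.8) and 32.2 CPM (30.3 to 34.3). In order of level, only the lowest interval lay clear of its neighbour's, and the whole range was 1.33-fold (1.22 to 1.46). A few bases at the start of Gata6 overlap a noncoding transcript on the other strand, so their reads cannot be told apart if strand was not used in counting.

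Gata4 (chromosome 14, 63198922 to 63271692) had 5 counts in untreated WT, 14 in the untreated library labelled knockout, 2 in WT AOM/DSS and 0 in the AOM/DSS library labelled knockout. The first 3 amounted to 0.198, 0.644 and 0.0917 CPM, and the count of 0 is set at a floor of 3 counts, 0.0947 CPM. The untreated library labelled knockout, the highest for Gata4, also held the most transcripts of the 8 pancreas markers listed, 6.77 CPM in sum against 0.754 to 2.20 CPM in the others. The part of these markers in the Gata4 count was not tested.

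The mesenchymal members went from the widest spread to none detected. Osr2 (chromosome 15, 35296098 to 35303305) had 2916 counts in WT before and 1905 after AOM/DSS, or 116 CPM (112 to 120) and 87.4 CPM (83.5 to 91.4). The libraries labelled knockout had 164 counts untreated and 12 after AOM/DSS, or 7.55 CPM (6.44 to 8.80) and 0.379 CPM (0.196 to 0.662). Both WT libraries were high and both libraries labelled knockout low, with a highest level 305-fold above the lowest (175 to 592).

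Nkx2-3 (chromosome 19, 43612325 to 43615892) had 601 counts in untreated WT, 514 in the untreated library labelled knockout, 334 in WT AOM/DSS and 300 in the AOM/DSS library labelled knockout. In CPM these were 23.8 (22.0 to 25.8), 23.7 (21.7 to 25.8), 15.3 (13.7 to 17.1) and 9.47 (8.43 to 10.6). Its order followed treatment, with both untreated levels inside each other's interval and both AOM/DSS levels below them. Barx1 (chromosome 13, 48662998 to 48666507) was not detected, and the floor of 3 counts stood at 0.0947 to 0.138 CPM by library.

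**Figure D1:**
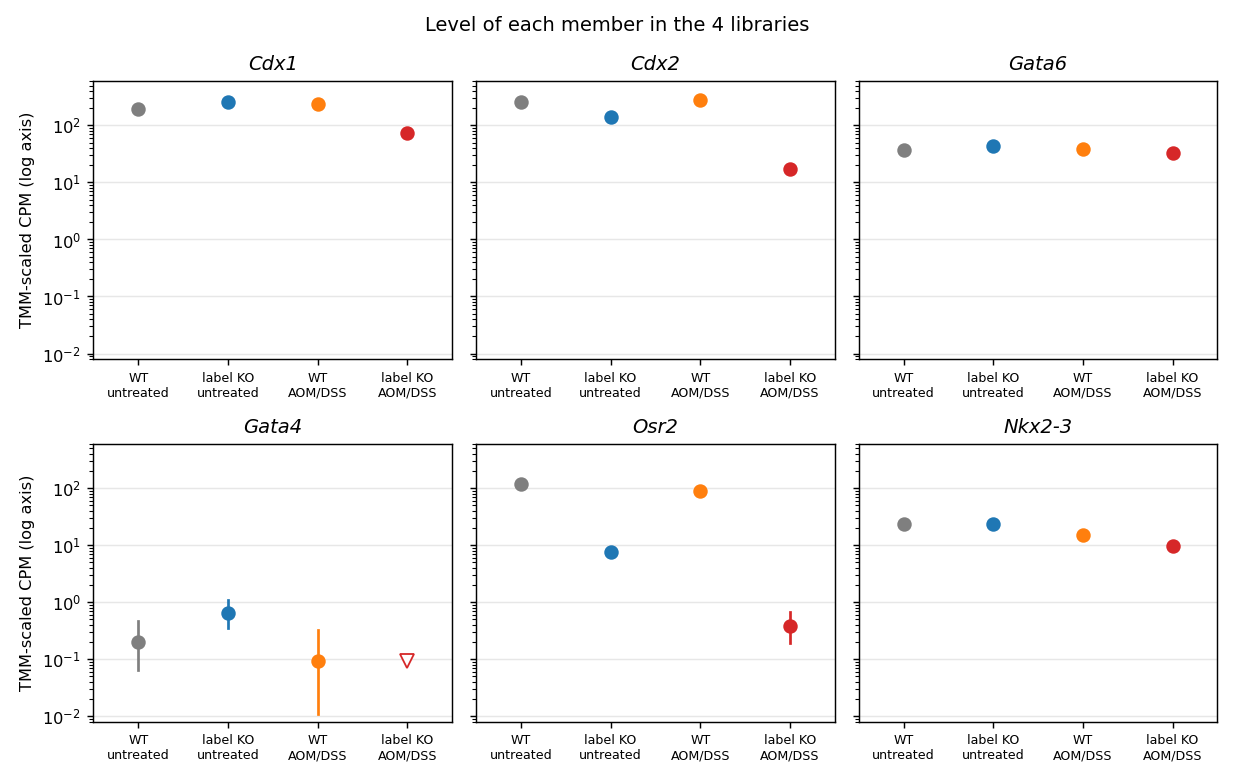
TMM-scaled CPM on a log axis for 6 members in the 4 libraries (KO, labelled knockout), 1 point per library with its 95% counting interval where wider than the point; the open triangle is the floor of 3 counts, 0.0947 CPM, for a count of 0. Osr2 lies at 116 CPM in untreated WT and 0.379 CPM in the AOM/DSS library labelled knockout, while Gata6 stays between 32.2 and 43.0 CPM.

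Levels of different genes were set beside each other per kilobase of annotated exon. In untreated WT, Cdx1 stood at 111 and Cdx2 at 114 CPM per kb, Osr2 at 31.9, Nkx2-3 at 11.3 and Gata6 at 5.74. The ratio of Cdx2 to Cdx1 within a library does not depend on scaling between libraries. Per kb this ratio was 1.03 (0.994 to 1.07) for WT before and 0.91 (0.877 to 0.945) after AOM/DSS.

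In the libraries labelled knockout, the same ratio was 0.423 (0.405 to 0.442) untreated and 0.180 (0.164 to 0.198) after AOM/DSS. Cdx1 and Cdx2 were therefore at like levels per kb in both WT libraries and Cdx2 was the lower of the pair in both others. Gata6 per Cdx2, on the same per kb basis, was 0.0504 in untreated WT, 0.104 in the untreated library labelled knockout, 0.0475 in WT AOM/DSS and 0.664 in the AOM/DSS library labelled knockout. Osr2 per Nkx2-3 was 2.83 (2.59 to 3.09) and 3.33 (2.96 to 3.75) in the WT libraries and 0.186 (0.155 to 0.222) and 0.0233 (0.0119 to 0.0413) in those labelled knockout.

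Pairs of libraries were compared by a size rule: a gene needed 50 or more counts in whichever library was higher, and a ratio of 2-fold or more between values of log2(CPM + 1). The added 1 CPM shrinks the ratio of scarce genes. The first pair sets WT colon after AOM/DSS beside untreated WT colon, to see what treatment changes with the genotype held. None of the 5 measured members passed in either direction, where 4.08% of 15356 tested genes passed as higher and 3.88% as lower. Their median log2 ratio was 0.03, against 0.02 for all tested genes.

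In that WT pair, Cdx1 was 1.23-fold higher after AOM/DSS (1.18 to 1.28), Cdx2 1.08-fold higher (1.05 to 1.12) and Gata6 1.02-fold higher (0.93 to 1.12). Osr2 was 1.32-fold lower (1.25 to 1.40) and Nkx2-3 1.56-fold lower (1.36 to 1.79). Beside the mesenchymal members, the 8 fibroblast markers summed to 2129 CPM untreated and 1173 CPM after AOM/DSS, with 3 of 8 passing as lower. Per 1000 counts of those markers, Osr2 stood at 54.3 untreated and 74.5 after AOM/DSS, and Nkx2-3 at 11.2 and 13.1, so neither was lower on that basis.

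The same treatment comparison in the libraries labelled knockout gave 4 of 5 measured members as lower and 0 as higher, where 15.9% of 15900 tested genes passed as lower and 14.1% as higher. These contrasts belong to those that chose the members, so nothing is read from the counts. Of all genes past the rule, 47.0% were higher, against 64.1% under library totals and 58.5% when totals omitted each gene over 1% of a library. All tested genes had a median log2 ratio of 0.03, and of 0.30 under library totals.

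Cdx2 was 8.5-fold lower (7.75 to 9.33), and 1.29% of tested genes had a log2 ratio as low. Osr2 was 19.9-fold lower (11.1 to 39.4) and Cdx1 3.62-fold lower (3.45 to 3.80). Nkx2-3 was 2.50-fold lower (2.16 to 2.89) and did not pass under library totals, where its log2 ratio was -0.96. Gata6, 1.33-fold lower (1.22 to 1.46), did not pass, and its log2 ratio of -0.40 lay within the middle 50% of all genes.

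Between the untreated libraries, which asks how the label differs from WT before any treatment, 1 of 5 measured members passed as lower and 0 as higher. The background was 3.37% of 15352 genes lower and 4.46% higher. The passing member was Osr2, 15.3-fold lower in the library labelled knockout (13.1 to 18.1), and 9 of all tested genes had a log2 ratio as low or lower. Cdx2 was 1.80-fold lower (1.72 to 1.88), just outside the rule at a log2 ratio of -0.84. Cdx1 was 1.36-fold higher (1.31 to 1.41), Gata6 1.15-fold higher (1.05 to 1.26) and Nkx2-3 1.01-fold lower (0.894 to 1.14).

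Neither untreated library is the one that stood apart. Fat transcripts did differ there, with all 5 adipocyte markers lower and a sum of 222 CPM in WT against 20.8 CPM in the library labelled knockout. The summed fibroblast markers stood at 2129 and 1945 CPM and the summed smooth muscle markers at 7970 and 8488 CPM. After AOM/DSS the adipocyte markers summed to 77.7 CPM in WT and 9.88 CPM in the library labelled knockout, so both were low where Osr2 was low. The part of fat tissue in the Osr2 differences was not tested.

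After AOM/DSS, 3 of 5 measured members passed as lower in the library labelled knockout against WT and 0 as higher, where 12.4% of 15779 genes passed as lower and 11.9% as higher. Of all genes past the rule 48.9% were higher, against 64.2% under library totals, which put the median of all genes at 0.28 against 0.03. Osr2 was 231-fold lower (132 to 447), and 15 tested genes had a log2 ratio as low or lower. Cdx2 was 16.6-fold lower (15.2 to 18.1), with 90 genes as low or lower, and Cdx1 3.28-fold lower (3.12 to 3.45). Nkx2-3 was 1.62-fold lower (1.38 to 1.90) and Gata6 1.18-fold lower (1.08 to 1.30), the latter turning to a log2 ratio of 0.03 under library totals.

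**Figure D2:**
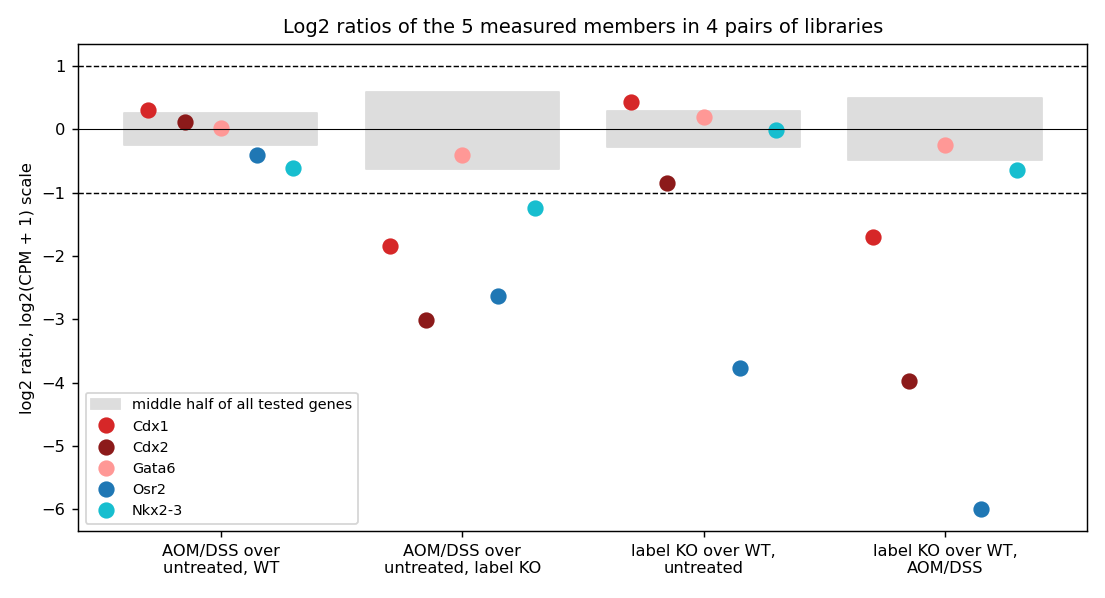
Log2 ratios on the log2(CPM + 1) scale of the 5 measured members in 4 pairs of libraries (KO, labelled knockout), with grey bands for the middle 50% of all tested genes and dashed lines at the 2-fold limits of the size rule. All 5 points lie inside the limits in the WT pair, and Osr2 lies lowest in both pairs that compare the label with WT, at -3.77 and -6.0.

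The AOM/DSS log2 ratio in the libraries labelled knockout minus that in WT was -3.13 for Cdx2, -2.23 for Osr2, -2.14 for Cdx1, -0.63 for Nkx2-3 and -0.43 for Gata6. Of 16383 genes, 219 had a difference as low as that of Cdx2, 520 as low as that of Osr2 and 574 as low as that of Cdx1. The Osr2 value, which rests on 12 counts in 1 library, was -0.84 with a pseudocount of 5 CPM. With 1 library per group these differences could not be tested.

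Members were also expressed per 1000 counts of markers of the tissue layer assigned to each from its known role, a ratio within a library. The layer that made the transcripts was not measured. Per 1000 counts of the 10 epithelial markers, Cdx1 stood at 17.2 in untreated WT, 20.0 in the untreated library labelled knockout, 17.2 in WT AOM/DSS and 7.43 in the AOM/DSS library labelled knockout. Cdx2 stood at 22.9, 10.9, 20.2 and 1.73 in the same order, and Gata6 at 3.31, 3.28, 2.76 and 3.31. Cdx1 and Cdx2 were thus low in the AOM/DSS library labelled knockout relative to its epithelial markers too, and Gata6 was not.

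Against WT AOM/DSS, Cdx2 per epithelial marker was 11.7-fold lower and Cdx1 2.31-fold lower in that library. In the untreated pair Cdx2 was 2.09-fold lower per epithelial marker, which put it past 2-fold on this basis. The summed epithelial markers ran from 9747 CPM in the AOM/DSS library labelled knockout to 13814 CPM in WT AOM/DSS, and by the size rule 1 of the 10, Krt18, passed as higher in the former (2.17-fold, 2.11 to 2.22) and 1, Vil1, as lower (2.08-fold, 2.03 to 2.12).

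Per 1000 counts of the 8 fibroblast markers, Osr2 stood at 54.3 in untreated WT, 3.88 in the untreated library labelled knockout, 74.5 in WT AOM/DSS and 0.330 in the AOM/DSS library labelled knockout. Nkx2-3 stood at 11.2, 12.2, 13.1 and 8.25, a narrow range beside that of Osr2. The fibroblast markers summed to 1173 and 1147 CPM in the AOM/DSS libraries, though single markers went both ways. By label Lum was 2.5-fold lower (2.13 to 2.94), and Pdgfra was 1.77-fold higher (1.64 to 1.91) without passing. The part of fibroblast content in the Osr2 level was not tested. All 8 smooth muscle markers were lower in the AOM/DSS library labelled knockout, with sums of 1201 CPM against 6295 in WT AOM/DSS. Which layer made the Osr2 transcripts was not measured, and the part of muscle in its level was not tested.

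**Figure D3:**
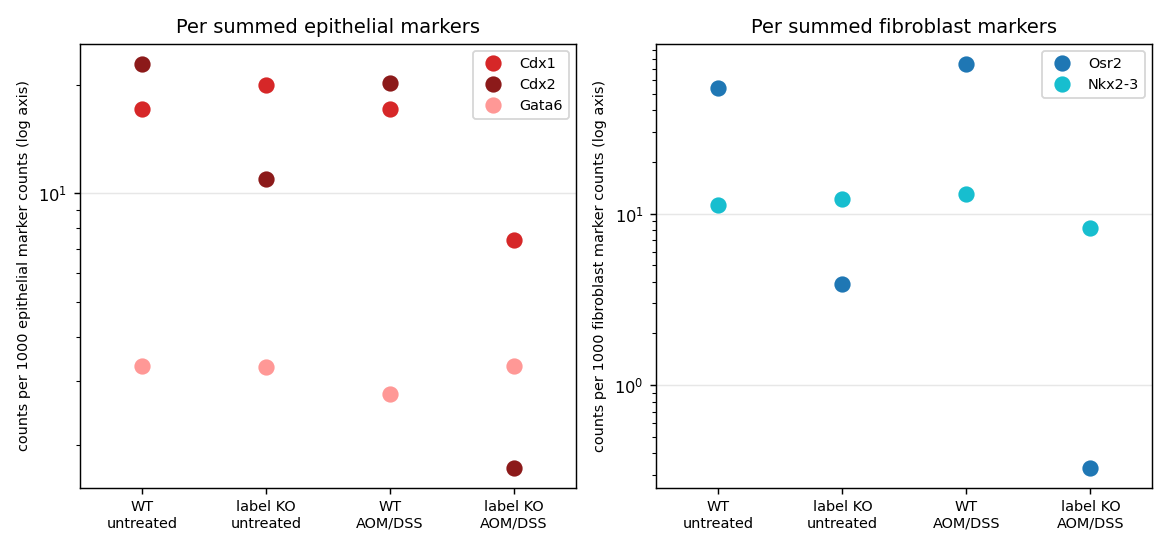
Counts of members per 1000 counts of the summed epithelial markers (left) or fibroblast markers (right) in the 4 libraries (KO, labelled knockout), on log axes. Gata6 lies between 2.76 and 3.31 and Nkx2-3 between 8.25 and 13.1 in every library, while Cdx2 reaches 1.73 and Osr2 0.330 in the AOM/DSS library labelled knockout.

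Paralogues of the members were mostly scarce in these libraries. After AOM/DSS those that passed by label were higher, but they are paralogues of Gata4, Gata6 and Barx1, none of which passed. Among the members that passed, Osr2 had a paralogue, Osr1, that was lower too without passing. Cdx4, the listed paralogue of Cdx1 and Cdx2, had 0 counts. Of all 15779 genes tested by label after AOM/DSS, 11.9% passed as higher. Of 12 listed, 5 reached 50 counts in some library. In the WT treatment pair 1 was higher and 0 lower of 3 tested (median 0.51), in the treatment pair labelled knockout 1 higher and 1 lower of 5 (0.61), by label untreated 0 and 0 of 2 (0.0), and by label after AOM/DSS 3 higher and 0 lower of 5 (1.16): Gata5 (5.37-fold, 4.54 to 6.39), Barx2 (12.9-fold, 5.72 to 35.8) and Gata3 (3.92-fold, 2.29 to 7.14). Gata5, a GATA factor of endoderm, stood at 1.07 CPM in untreated WT, 1.75 in the untreated library labelled knockout, 7.06 in WT after AOM/DSS, and 37.9 CPM where AOM/DSS and the knockout label meet. It was 6.59-fold higher after AOM/DSS in WT (4.36 to 10.3) and 21.7-fold higher in the libraries labelled knockout (15.7 to 30.8). In the last library Gata5 had 1201 counts, beside 1021 for Gata6 and 0 for Gata4.

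Osr1, the paralogue of Osr2, had 127, 81, 67 and 33 counts in untreated WT, the untreated library labelled knockout, WT AOM/DSS and the AOM/DSS library labelled knockout. By label, Osr1 was 1.35-fold lower untreated (1.02 to 1.81), so the 15.3-fold difference of Osr2 had no counterpart of that size. After AOM/DSS Osr1 was 2.95-fold lower by label (1.92 to 4.62) without passing. In the treatment pair labelled knockout it was 3.58-fold lower (2.36 to 5.54) and passed. Barx2, the paralogue of Barx1, had 18, 43, 6 and 112 counts, Gata2 55, 67, 77 and 140, and Gata3 23, 33, 16 and 91. Cdx4 had 0 counts in each library.

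Of 17 other regulators of gut epithelial region, 2 passed as higher and 0 as lower in the WT treatment pair (median log2 ratio -0.01, 13 tested), and 3 as higher and 6 as lower of 15 tested in the treatment pair labelled knockout (median -0.93). Between labels, 1 was higher and 1 lower of 12 tested untreated (median 0.05), and 3 were higher and 6 lower of 15 tested after AOM/DSS (median -0.79). Isx, an intestine-specific homeobox factor, was, like Cdx2, higher in both WT libraries than in both others, with 242 and 222 CPM for WT against 69.3 and 9.28 CPM for the knockout label (untreated first).

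Isx was 3.49-fold lower in the untreated library labelled knockout (3.30 to 3.70) and 24.0-fold lower in the AOM/DSS pair (21.3 to 27.1). Onecut2, a homeobox factor of foregut endoderm, had 3, 0 and 2 counts in untreated WT, the untreated library labelled knockout and WT AOM/DSS, and 304 in the AOM/DSS library labelled knockout. Creb3l3, a factor of small intestinal enterocytes and liver, was 15.3-fold higher after AOM/DSS in WT (11.6 to 20.5) and 14.9-fold lower in the library labelled knockout than in WT after AOM/DSS (11.7 to 19.3). Foxa2, a forkhead factor of endoderm, was 5.36-fold higher by label untreated (4.49 to 6.44).

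Of 17 other regulators of gut mesenchyme, 1 passed as higher and 3 as lower of 14 tested in the WT treatment pair (median -0.22), and 2 as higher and 7 as lower of 13 in the treatment pair labelled knockout (median -1.0). Between labels, 1 was higher and 3 lower of 15 tested untreated (median -0.52), and 3 were higher and 5 lower of 14 after AOM/DSS (median -0.73).

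Tbx3, a T-box factor, was 4.49-fold lower in the untreated library labelled knockout (3.94 to 5.12), and 8.56-fold higher there after AOM/DSS than before (7.57 to 9.71), reaching 109 CPM. In WT it went the other way with AOM/DSS, 2.22-fold lower (2.02 to 2.46), and passed. Hand1 and Hand2, basic helix-loop-helix factors of gut mesenchyme, were 11.6-fold and 7.41-fold lower in the AOM/DSS library labelled knockout than in WT AOM/DSS (7.40 to 18.9 and 5.80 to 9.57). Gli1, a mediator and target of hedgehog signals, was 11.5-fold lower after AOM/DSS in WT (8.44 to 16.1) and 7.00-fold lower in the libraries labelled knockout (5.40 to 9.19). Nkx2-3, whose highest and lowest levels were 2.52-fold apart, spanned a narrower range than these genes, which were named for their large ratios. Other genes of the list spanned less than Nkx2-3, such as Meis2, which ran from 13.6 to 23.6 CPM.

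**Figure D4:**
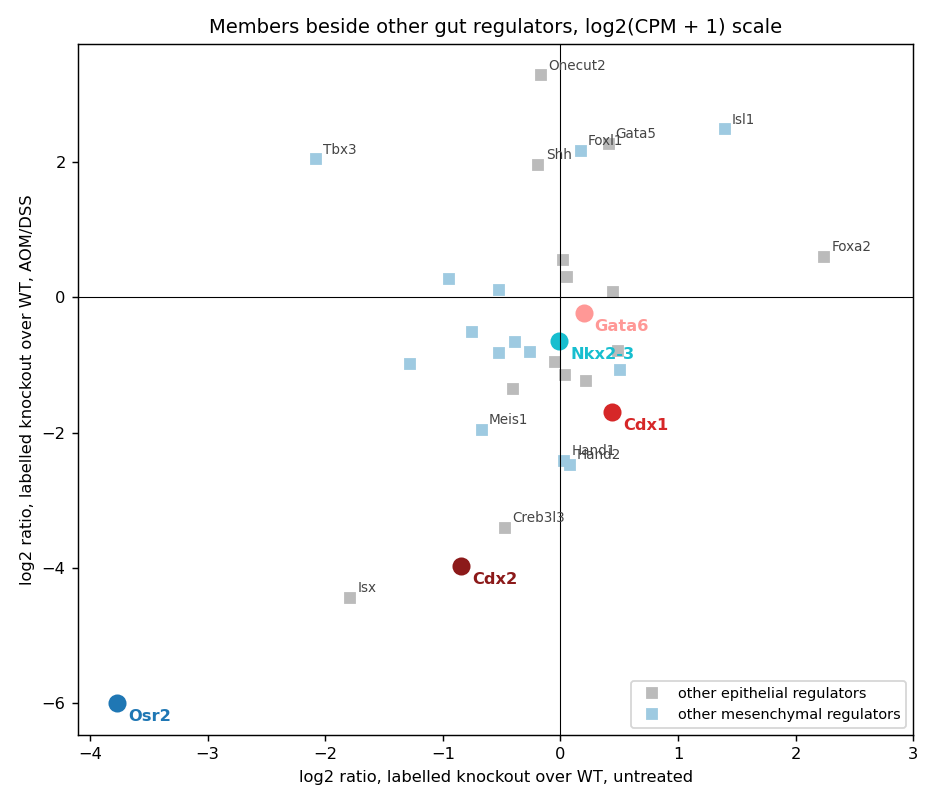
Log2 ratio of the library labelled knockout over WT, untreated on the horizontal axis and after AOM/DSS on the vertical axis, on the log2(CPM + 1) scale, for the 5 measured members (circles) and the plotted other gut regulators, each with at least 50 counts in some library (squares). Osr2 lies lowest on both axes at -3.77 and -6.0, and Cdx2 at -0.84 and -3.97 lies between Creb3l3 at -0.48 and -3.41 and Isx at -1.79 and -4.44.

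Genes known to be linked to a member were counted beside it, without any reading of regulation. Of 13 genes linked to Cdx factors, 1 was higher and 0 lower of 12 tested in the WT treatment pair (median 0.26), and 0 were higher and 9 lower of 11 in the treatment pair labelled knockout (median -3.04). Untreated, 1 was higher and 2 lower of 12 by label (median -0.10), and after AOM/DSS 0 were higher and 11 lower of 12 (median -3.14). Sis, sucrase-isomaltase, had 554 and 648 counts in the WT libraries, 16 in the untreated library labelled knockout and 0 in the AOM/DSS library labelled knockout.

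Car1, a colonic carbonic anhydrase, was 8.93-fold lower in the untreated library labelled knockout (8.8 to 9.06). Slc26a3, the colonic chloride exchanger, went the other way from Cdx2 untreated, 5.03-fold higher by label (4.85 to 5.22), and was 30.2-fold lower by label after AOM/DSS (26.4 to 34.7). Cdh17, an intestinal cadherin, was the tested gene of this list that did not pass by label after AOM/DSS, at 808 CPM in WT and 545 CPM with the knockout label.

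Of 9 genes linked to intestinal GATA factors, 2 were higher and 0 lower of 7 tested in the WT treatment pair (median 0.32), 2 higher and 2 lower of 5 in the treatment pair labelled knockout (-0.97), 0 higher and 2 lower of 6 by label untreated (-0.49) and 1 higher and 5 lower of 6 after AOM/DSS (-2.12, or -2.84 with counts of 0 at the floor). Slc10a2, the ileal bile acid transporter, had 1617 and 1328 counts in the WT libraries against 111 and 491 in those labelled knockout. Zfpm1, a partner protein of GATA factors, was 5.46-fold higher in the AOM/DSS library labelled knockout than in WT AOM/DSS (4.23 to 7.14).

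For Barx1, which was not detected, the 9 stomach markers were counted. They summed to 4.80, 1.84 and 2.02 CPM in untreated WT, the untreated library labelled knockout and WT AOM/DSS, with 5 of 9 at 0 counts in each. In the AOM/DSS library labelled knockout, where Cdx2 was lowest, they summed to 23.0 CPM with 1 of 9 at 0. Whether that sum is linked to the Cdx2 level was not tested. Muc6, a gland mucin, made up most of that sum with 619 counts, while Muc5ac, the surface mucin of the stomach, had 3 counts and Gkn1, a stomach surface protein, 8. Sfrp1, a secreted Wnt antagonist linked to Barx1 in stomach mesenchyme, had 826 to 1646 counts in libraries without detected Barx1. Of the 11 genes listed for Barx1, 2 to 4 were tested in a pair, with 0 higher and 1 lower in the WT treatment pair, 2 and 0 in that labelled knockout, 0 and 1 by label untreated and 3 and 0 by label after AOM/DSS. The medians were -1.05, 0.83, -0.71 and 1.1. The 6 squamous markers summed to 2.38 to 5.04 CPM in those 3 libraries and 74.2 CPM in the AOM/DSS library labelled knockout.

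Madcam1, the addressin linked to Nkx2-3, moved with it by label after AOM/DSS and against it in both treatment pairs. Among libraries labelled knockout, Madcam1 rose with treatment from 7.41 to 10.0 CPM, while Nkx2-3 was 2.50-fold lower. By label untreated, Madcam1 was 1.99-fold higher (1.53 to 2.59) and Nkx2-3 nearly level (1.01-fold lower, 0.894 to 1.14). Madcam1 was 5.08-fold higher after AOM/DSS in WT (4.05 to 6.42), where Nkx2-3 was 1.56-fold lower, and 1.89-fold lower in the library labelled knockout than in WT after AOM/DSS (1.63 to 2.20), where Nkx2-3 was 1.62-fold lower. Vcam1, an adhesion molecule of endothelium, had 239, 266, 593 and 2319 counts in untreated WT, the untreated library labelled knockout, WT AOM/DSS and the AOM/DSS library labelled knockout. The 8 endothelial markers summed to 204 to 243 CPM in the 4 libraries, and none passed the size rule in any pair. Of 8 genes listed for Nkx2-3, 3 were higher and 1 lower of 6 tested in the WT treatment pair (median 0.49), 2 and 2 of 7 in that labelled knockout (-0.8), 1 and 0 of 7 by label untreated (0.59) and 2 and 1 of 6 by label after AOM/DSS (-0.24).

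Other cell types were followed by summed markers alone. The 6 leukocyte markers summed to 153 to 230 CPM in the first 3 libraries and 406 CPM in the AOM/DSS library labelled knockout. In the same order the 7 neural markers summed to 50.0 to 77.7 CPM and 33.8 CPM, and the 5 mesothelial markers to 2.53 to 4.49 CPM and 14.96 CPM. In the last library Ret alone made up 26.6 CPM of the neural sum and Msln 13.0 CPM of the mesothelial sum. By label after AOM/DSS, 6 of 7 neural markers passed as lower. Msln passed as higher, while Upk1b was lower without passing (1.42 against 2.84 CPM). Of the 6 leukocyte markers, 2 passed as higher and 2 as lower. The 10 small intestine markers summed to 506 CPM in untreated WT and 383 CPM in the untreated library labelled knockout. After AOM/DSS they summed to 925 CPM in WT and 60.8 CPM in its counterpart labelled knockout. Both WT sums were above the other pair, but single markers did not share that order untreated. By label untreated, 1 passed as higher, 2 as lower and 5 did not pass, of 8 tested (median log2 ratio -0.26). The part of these cell types in the members' levels was not tested.

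Likeness of pattern was measured as the distance between log2(CPM + 1) values centred on each gene's mean over the 4 libraries. It was taken among 11984 genes with at least 200 counts in some library. Symbols of Gm and digits, symbols ending in Rik, date-like symbols, and mitochondrial or ribosomal RNA genes were left out. Osr2 had 1 gene within a distance of 1, Prap1 at 0.92, which had 1152, 124, 1352 and 9 counts in untreated WT, the untreated library labelled knockout, WT AOM/DSS and the AOM/DSS library labelled knockout. Next came the unnamed LOC102635496 at 1.14 and the lipid transporter gene Abca12 at 1.24. Cdx2 had 86 genes within that distance, led by Ppara, a nuclear receptor of fatty acid oxidation, at 0.16, Ces2b at 0.20 and Bmp3 at 0.25.

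Cdx1 had 1852 such genes, led by Sprr2a2 at 0.03, which has near-identical copies, then Kcnk5 at 0.07 and Ankrd9 at 0.09. Nkx2-3 had 4091, led by Kctd14 at 0.06, Ighj2 at 0.08 and Agap1 at 0.09, and Gata6 had 8366, led by Ddx54, Itsn1 and Zbtb4, each at 0.02. With 4 values per gene these are descriptions, and a nearly flat pattern such as that of Gata6 lies near most genes.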

How the data were processed

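Colon RNA, isolated with TRIzol, went into Ion Proton RNA-seq libraries, per the labels' protocols. The authors deposited 1 table of whole-number read counts per gene symbol, not normalized, with 44788 rows and 4 columns that carry the sample titles (0 columns of other samples). Per the submitters' processing notes, reads were handled on GRCm38 (mm10). Which aligner, counter and annotation were used, and whether strand was, is not given in the sources used here.

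TMM factors from edgeR 4.0.16 (R 4.3.3) turned counts into CPM. For 4 pairs of libraries the log2 ratio was taken with a pseudocount of 1 CPM, and the size rule asked for 50 counts in whichever library was higher and a 2-fold ratio. Printed folds are CPM ratios without a pseudocount, with exact 95% intervals (Clopper-Pearson on the summed counts), and levels have exact Poisson intervals. The reads carry no molecular identifiers and so do not count molecules, which leaves these intervals with counting error only. No p-value was computed, since each group has 1 library. Ratios and intervals were tested on simulated data. Exon lengths and positions came from GENCODE M21 (GRCm38), and promoter windows from RefSeq.

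The members, the 19 gene lists (12 of cell type markers) and the tests were chosen with earlier results of these data known. Named genes were all members, the 3 genes nearest to each in pattern, up to 4 listed genes with the largest ratio per pair, and paralogues with at least 50 counts. Osr1, Muc5ac, Gkn1, Krt18, Cdh17, Sfrp1, Slc10a2 and some other listed genes were named after their values were seen. Some genes that the rule names are left out here. The marker Adgre1 was not matched. Alternatives were DESeq2 size factors (DESeq2 1.42.0), upper-quartile factors, library totals, totals without genes above 1% of a library, a pseudocount of 0.5 or 5 CPM, a minimum of 200 counts or none, thinning to the smallest total, and other ways to sum the markers.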

Additional observations from a re-analysis of the deposited data

Results flagged for a closer look

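Some members moved in opposite directions in matching pairs of libraries, with counting intervals on either side of no difference. None of these contrasts was tested, since each group has 1 library. Cdx1 had an AOM/DSS log2 ratio of 0.30 in WT and -1.84 in the libraries labelled knockout, and a label log2 ratio of 0.44 untreated and -1.70 after AOM/DSS. Cdx2 had an AOM/DSS log2 ratio of 0.12 in WT and -3.01 in the libraries labelled knockout. Gata6 had a label log2 ratio of 0.20 untreated and -0.24 after AOM/DSS, and the latter was 0.03 under library totals, so its opposite directions depend on the scaling. Each lower value involves the AOM/DSS library labelled knockout, which stood apart from the others.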

How the results depend on the processing

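The number of members past the size rule stayed at 0 in the WT treatment pair, 1 (Osr2) untreated and 3 (Cdx1, Cdx2 and Osr2) after AOM/DSS under each alternative run. In the treatment pair labelled knockout it was 4, or 3 under library totals and with a pseudocount of 5 CPM (Nkx2-3 at log2 ratios of -0.96 and -0.99) and with at least 200 counts, which removes Osr2. With the pseudocount of 5 CPM the number of all genes past the rule was 582 against 1223 in the WT treatment pair, 2995 against 4777 in the pair labelled knockout, 620 against 1202 by label untreated and 2367 against 3822 after AOM/DSS. The Osr2 log2 ratio ranged from -1.22 to -3.20 in the treatment pair labelled knockout and from -4.1 to -6.64 by label after AOM/DSS, and its difference of responses from -0.84 to -2.79, with the ends at pseudocounts of 5 and 0.5 CPM. No called member changed direction. Among those not called, Gata6 ranged from -0.03 to 0.03 in the WT treatment pair and from -0.29 to 0.03 by label after AOM/DSS, and Nkx2-3 from -0.10 to 0.01 by label untreated. Members at least 2-fold apart per marker level numbered 0, 3, 2 and 3 in the pairs in the order of the report, also by the marker median and, an alternative added after the data were seen, without keratins and collagens. No paired analysis was possible because each group has 1 library. Depth limits Gata4, with at most 14 counts, and Barx1, with 0, to levels near or at the floor.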
